A study of Mus musculus with 4 samples.

Results

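The 7 cyclin-dependent kinase inhibitor genes of the mouse, Cdkn1a, Cdkn1b and Cdkn1c of the CIP/KIP family and Cdkn2a, Cdkn2b, Cdkn2c and Cdkn2d of the INK4 family, were examined for binding of the forkhead transcription factor FOXL2 in the fetal ovary. They were chosen by name, with earlier results of these data known, as 7 of 21887 protein-coding genes on chromosomes 1 to 19, X and Y. All 7 symbols were found in the RefSeq gene table. A FOXL2 peak was counted for a gene when its centre lay in the gene or within 50 kb of either end, which took 18 of 11438 peaks. Samples came from XX gonads of CD1 embryos at stage E14.5, 2 with FOXL2 ChIP and 2 of input chromatin, with no treatment and no altered gene named in the labels. Each ChIP used a pool of 80 to 100 ovaries freed of the mesonephros and 4 µg of FOXL2 antibody, so the chromatin came from all cell types of the ovary, those with and without FOXL2. The deposited list gives the position of each peak on build mm10 and is shared by both ChIP samples. It holds no height, score or value per sample, so the read depth is unknown, no peak has a replicate error and the labelled tissue could not be checked against marker levels. No difference between genes was tested, because genes of a family chosen by name are not replicates, and counts are set beside the same counts over all protein-coding genes.

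Cyclin-dependent kinase inhibitors are small proteins that hold back the division cycle. The CIP/KIP proteins p21, p27 and p57, made from Cdkn1a, Cdkn1b and Cdkn1c, bind cyclin and kinase together and act on several kinases. The INK4 proteins bind the kinases CDK4 and CDK6 and keep them from D-type cyclins, and they are p16 from Cdkn2a, p15 from Cdkn2b, p18 from Cdkn2c and p19 from Cdkn2d. From a second, upstream start Cdkn2a also makes ARF, an unrelated protein that stabilises p53. In the fetal ovary, p27 is known as a mark of pregranulosa cells that have left the cell cycle, and these cells also make FOXL2.

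The start windows of the genes are shown first because peaks lay over some of them and not over others. Each window is the stretch from 250 bases before to 50 bases after an annotated transcription start, as RefSeq gives it on GRCm38.p6, the assembly that mm10 denotes, and reads 5′ to 3′ along the gene. Capitals mark bases under a FOXL2 peak. The first 4 windows were partly covered by a peak, and the last 2, of Cdkn1a and Cdkn2b, had none and are entirely in lower case.
Cdkn1b start window, chr6:134920151-134920450, plus strand: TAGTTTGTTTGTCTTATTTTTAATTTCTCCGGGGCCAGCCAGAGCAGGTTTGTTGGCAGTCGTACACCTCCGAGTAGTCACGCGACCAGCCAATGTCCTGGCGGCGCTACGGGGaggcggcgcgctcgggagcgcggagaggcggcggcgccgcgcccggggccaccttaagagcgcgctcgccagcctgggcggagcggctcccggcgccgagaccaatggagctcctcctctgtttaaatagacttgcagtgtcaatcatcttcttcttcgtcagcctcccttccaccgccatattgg
Cdkn2a upstream start window, chr4:89294570-89294869, minus strand: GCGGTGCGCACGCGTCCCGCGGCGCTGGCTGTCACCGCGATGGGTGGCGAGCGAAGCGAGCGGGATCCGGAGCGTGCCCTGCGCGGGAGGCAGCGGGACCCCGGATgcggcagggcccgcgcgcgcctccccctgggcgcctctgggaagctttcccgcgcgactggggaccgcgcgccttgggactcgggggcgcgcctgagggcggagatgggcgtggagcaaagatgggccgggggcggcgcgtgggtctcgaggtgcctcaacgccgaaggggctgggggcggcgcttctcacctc
Cdkn2c upstream start window, chr4:109666707-109667006, minus strand: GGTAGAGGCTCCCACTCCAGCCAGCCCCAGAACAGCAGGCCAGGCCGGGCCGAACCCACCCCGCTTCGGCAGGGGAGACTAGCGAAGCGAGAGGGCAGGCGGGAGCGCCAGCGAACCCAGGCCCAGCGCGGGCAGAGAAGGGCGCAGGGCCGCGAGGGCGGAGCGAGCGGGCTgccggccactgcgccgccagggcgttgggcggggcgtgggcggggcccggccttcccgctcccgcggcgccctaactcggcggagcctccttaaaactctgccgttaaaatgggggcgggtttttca
Cdkn2d start window, chr9:21291160-21291459, minus strand: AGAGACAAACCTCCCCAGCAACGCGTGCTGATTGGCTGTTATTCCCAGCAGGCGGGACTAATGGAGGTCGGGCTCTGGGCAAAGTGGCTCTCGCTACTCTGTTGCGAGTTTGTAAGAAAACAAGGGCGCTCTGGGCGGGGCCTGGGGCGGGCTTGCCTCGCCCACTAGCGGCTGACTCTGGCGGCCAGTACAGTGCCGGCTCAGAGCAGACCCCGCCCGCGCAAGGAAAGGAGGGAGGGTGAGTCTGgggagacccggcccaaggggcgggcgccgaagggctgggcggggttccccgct
Cdkn1a second start window, chr17:29093519-29093818, plus strand: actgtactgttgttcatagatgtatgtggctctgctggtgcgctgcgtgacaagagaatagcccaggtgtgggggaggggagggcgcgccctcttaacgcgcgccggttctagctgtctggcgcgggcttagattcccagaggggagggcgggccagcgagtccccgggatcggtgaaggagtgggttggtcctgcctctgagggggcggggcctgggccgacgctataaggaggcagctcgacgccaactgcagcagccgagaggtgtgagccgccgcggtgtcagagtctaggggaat
Cdkn2b start window, chr4:89310983-89311282, minus strand: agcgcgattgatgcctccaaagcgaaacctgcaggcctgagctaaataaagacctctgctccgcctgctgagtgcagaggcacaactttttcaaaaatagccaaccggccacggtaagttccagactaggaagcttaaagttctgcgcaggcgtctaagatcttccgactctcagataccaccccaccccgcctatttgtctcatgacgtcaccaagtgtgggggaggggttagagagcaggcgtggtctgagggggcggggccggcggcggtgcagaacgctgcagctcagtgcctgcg
Peaks covered 114 bases of the Cdkn1b window, 106 of Cdkn2a, 173 of Cdkn2c and 247 of Cdkn2d. In each case the covered bases began at the 5′ end of the window, upstream of the start, and stopped before the start site: the last covered base lay at position -137 in Cdkn1b, -145 in Cdkn2a, -78 in Cdkn2c and -4 in Cdkn2d, counted from the start site as 0.

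All 7 genes had a peak in the 50 kb window, as did 67.5% of all protein-coding genes. Counts ranged from 1 to 6. Cdkn1b had 6 peaks, and 1.12% of protein-coding genes had at least as many. Cdkn2c had 4 (8.56% had at least as many), Cdkn2d 3 (20.7%), Cdkn1a and Cdkn1c 2 each (42.1%), and Cdkn2a and Cdkn2b 1 each (67.5%). The median gene had 1 peak and the most had 9. The windows were 103 to 120 kb long, that of Cdkn1b 105 kb, against a median of 117 kb over all genes. Within 10 kb, 5 of 7 genes had a peak, beside 49.6% of protein-coding genes, and the exceptions were Cdkn1a and Cdkn2b. The same 5 had one within 5 kb (45.9% of all), and all 7 had one within 100 kb (76.3%).

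**Figure D1:**
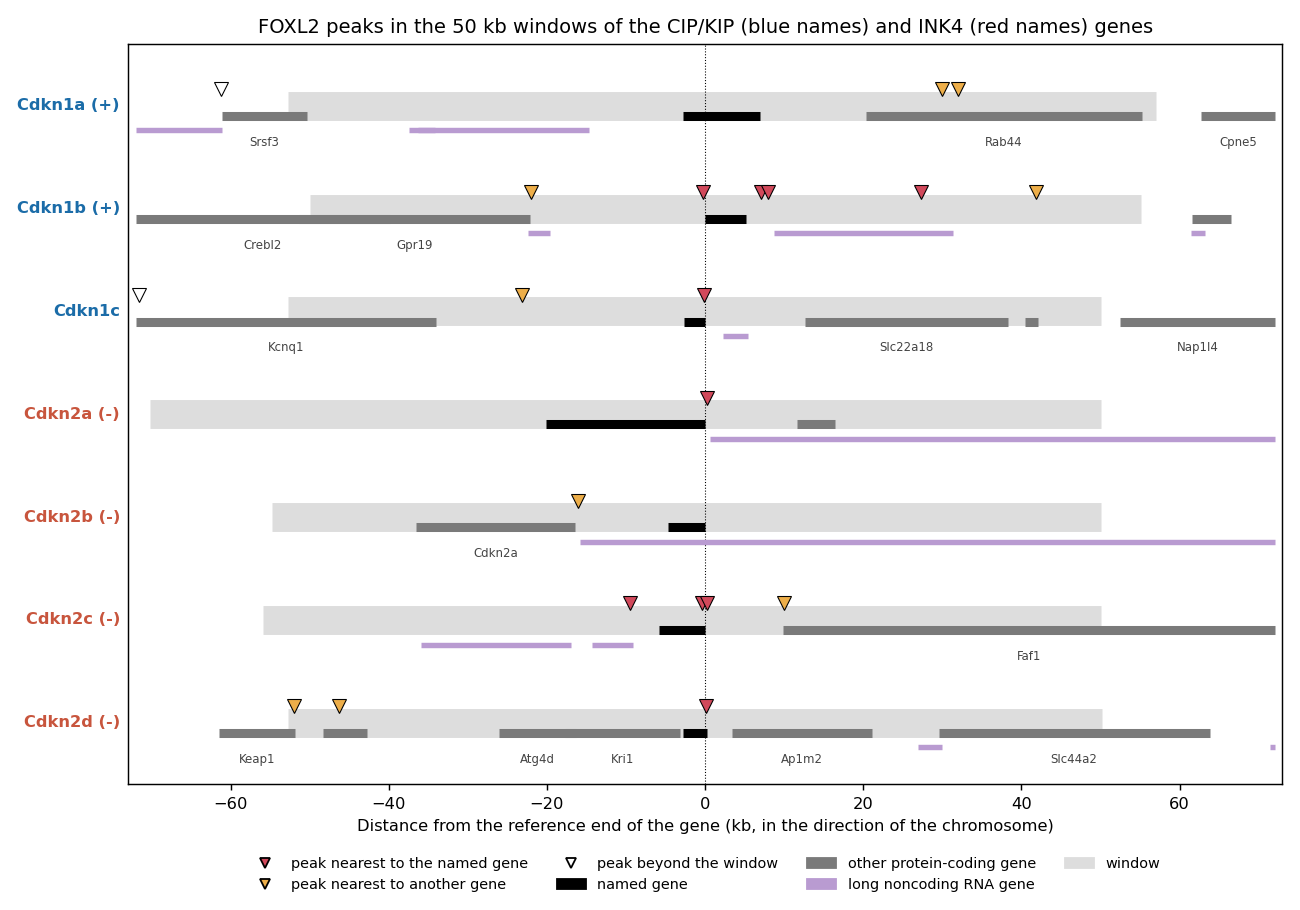
Positions of FOXL2 peaks (triangles) in the window of each gene, in kb along the chromosome from the annotated start nearest to a peak, or for Cdkn1c from its end of higher coordinate; strand is given after the name where the table has it. Peaks sit at the reference point in Cdkn1b, Cdkn1c, Cdkn2a, Cdkn2c and Cdkn2d, and no peak lies there in Cdkn1a or Cdkn2b.

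**Figure D2:**
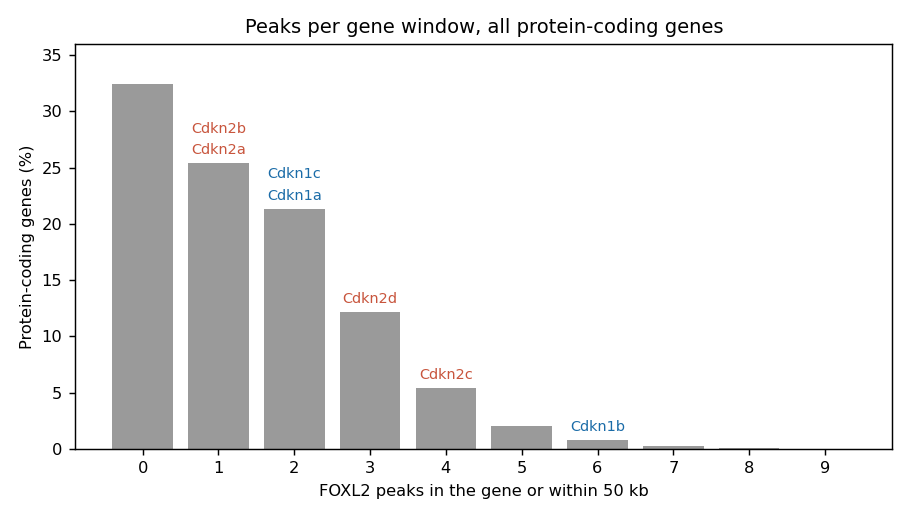
Share of all 21887 protein-coding genes (%, bars) by the number of peaks in the gene or within 50 kb, with the names of the CIP/KIP (blue) and INK4 (red) genes above the bar of their own count. Cdkn1b stands at 6 peaks and Cdkn2c at 4, while the other 5 genes stand at 1 to 3.

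Cdkn1b, the p27 gene, had the most peaks of the 7 within 50 kb and none inside the gene. Within 10 kb it had 3 against 4 for Cdkn2c, and within 5 kb both had 3. The gene lies on chromosome 6 at 134920401 to 134925525, on the plus strand. A single peak, chr6:134919965-134920264, was centred 287 bp upstream of its start. A pair followed beyond the 3′ end, chr6:134927304-134927603 and chr6:134928249-134928548, at 1928 and 2873 bp from the gene and 945 bp apart. That pair lay 1639 and 694 bp upstream of the start of Lockd, a long noncoding RNA gene next to Cdkn1b on the same strand. A further peak, chr6:134947503-134947802, lay 22.1 kb from the gene and within Lockd, 18.6 kb past its start. These 4 peaks had Cdkn1b as their nearest protein-coding gene by border, and 0.292% of protein-coding genes had 4 or more such peaks within 50 kb.

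The other 2 peaks counted for Cdkn1b lay nearest to other genes. The peak chr6:134898283-134898582 was 238 bp outside Gpr19, which encodes an orphan G protein-coupled receptor, and 22.0 kb upstream of Cdkn1b. It was also inside the noncoding RNA gene 2810454H06Rik, 471 bp past its start. The last peak, chr6:134962048-134962347, stood 36.7 kb from Cdkn1b and 19.8 kb upstream of Apold1. Beyond the window the next peaks were at Crebl2, 90.2 kb away, and at Ddx47, 86.1 kb away.

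Cdkn1a, the p21 gene and a well-known target of p53, had no peak in the gene or within 10 kb. It lies on chromosome 17 at 29090979 to 29100722 and has 2 annotated starts, at 29090979 and 29093769. Its window held a pair of peaks, chr17:29123627-29123926 and chr17:29125571-29125870, 23054 and 24998 bp beyond its 3′ end. Both lay inside Rab44, a Rab family GTPase gene, 9.65 and 11.6 kb from the border of that gene, and Rab44 was the nearest coding gene by border for both. They lay 30.0 and 32.0 kb downstream of the second start of Cdkn1a. Just past the 50 kb limit on the other side, at 58.5 kb, a peak stood 133 bp outside Srsf3, which encodes a splicing factor.

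Cdkn1c, the p57 gene, is imprinted and expressed from the maternal chromosome. It occupies chromosome 7 from 143458339 to 143461059. One peak, chr7:143460824-143461123, was centred 86 bp inside the end of higher coordinate. The other, chr7:143437814-143438113, lay between Kcnq1 and Cdkn1c, 20.4 kb from Cdkn1c and 10.9 kb from Kcnq1, a potassium channel gene of the same imprinted domain. No peak was found within 50 kb on the higher side, where Slc22a18 and Phlda2 lie, and the next was 88.1 kb away inside Nap1l4. On the lower side the next peak was 68.9 kb away, within Kcnq1.

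Cdkn2a and Cdkn2b are neighbours on chromosome 4 and shared a single peak, chr4:89294764-89295063, so they are not independent cases. Cdkn2a spans 89274473 to 89294619 on the minus strand, with annotated starts at 89294619 and 89282192. The peak was centred 294 bp upstream of the first of these, which is the start known for ARF, and no peak lay within 1 kb of the second, known for p16. On the other side of the same peak, 267 bp away, began the long noncoding RNA gene Gm12610, which runs in the opposite direction; the 2 starts were 561 bp apart with the peak between them. The start window of Gm12610 held 134 of the 300 bases of the peak. Of all peaks, 6.21% lay within 1 kb of both a protein-coding and a noncoding start.

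Cdkn2b, at 89306289 to 89311032, had no peak of its own. The shared peak was 11.4 kb from it and had Cdkn2a as its nearest coding gene. The locus was otherwise empty: measured from the shared peak, the next were 157 kb away, inside Mtap, a gene of methionine salvage, and 191 kb away, a peak whose nearest coding border was that of Cdkn2b at 175 kb. A peak with no other within 150 kb was found in 13.2% of cases over the whole list.

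Cdkn2c, the p18 gene, had 4 peaks, all within 10 kb, and was the only gene of the 7 with a peak within 1 kb on each side of 1 start. The gene is on chromosome 4 at 109660876 to 109666756, on the minus strand. The peak chr4:109666834-109667133 was centred 227 bp upstream of the start at 109666756 and chr4:109666262-109666561 was 345 bp downstream of it, inside the gene. Of the genes with a start peak, 7.69% had 2 or more peaks within 1 kb of a start. Another peak, chr4:109657123-109657422, lay 3604 bp beyond the 3′ end and 311 bp past the start of the noncoding RNA gene 9630013D21Rik. The last, chr4:109676602-109676901, was 9995 bp from Cdkn2c, only just inside a 10 kb limit, and 124 bp past the start of Faf1, which encodes a FAS-associated factor. With 3 peaks nearest to it, Cdkn2c was among the 1.41% of protein-coding genes with 3 or more. The next peaks beyond these lay 184 kb from the gene on one side and 316 kb on the other.

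Cdkn2d, the p19 gene, had 1 peak at its start and 2 near the edge of its window. The gene is on chromosome 9 at 21288459 to 21291421, on the minus strand. The peak chr9:21291213-21291512 was centred 59 bp inside the gene as the table draws it and 153 bp upstream of the annotated start at 21291209, since the gene border lies beyond that start. The others lay 43.5 and 49.3 kb away. The nearer one, chr9:21244805-21245104, was inside S1pr5, a sphingosine 1-phosphate receptor gene. The farther one, chr9:21239040-21239339, was 143 bp past the start of Keap1, a sensor of oxidative stress, and lay just inside the 50 kb limit.

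The families were then set side by side by number and place of peaks. The CIP/KIP genes had 10 distinct peaks in 3 windows and the INK4 genes 8 in 4 windows, which is 3.33 and 2.0 peaks per gene. Over all protein-coding genes the mean was 1.44 peaks per window, with a shared peak counted for each gene. The order of the 2 families turned within 10 kb, where they had 4 and 6 peaks, or 1.33 and 1.5 per gene. Of these 6, 1 lay 9995 bp from Cdkn2c, just inside that limit, and nearest to Faf1. Within 5 kb, where it was not counted, the values were 1.33 and 1.25 per gene. Within the families the counts at 50 kb ran from 2 to 6 and from 1 to 4, so they overlapped, and Cdkn1b alone held 6 of the 10 CIP/KIP peaks. By nearest coding border, 5 peaks of each family belonged to its own genes. Counting members, 5 of 7 had a peak nearest to them, beside 40.1% of protein-coding genes.

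A peak within 1 kb of an own border was found at 5 of 7 genes, beside 35.3% of protein-coding genes, and these were Cdkn1b, Cdkn1c, Cdkn2a, Cdkn2c and Cdkn2d. For the 6 genes with a start in the promoter table, 4 had a peak within 1 kb of a start, beside 38.4% of protein-coding genes with a start there. Own-start or own-border peaks numbered 2 for the CIP/KIP genes and 4 for the INK4 genes. By distance to any coding border, 6 of 8 INK4 peaks but 3 of 10 CIP/KIP peaks lay within 1 kb of one, against 63.4% of all peaks. Among these, the INK4 peaks at Faf1 and Keap1 and the CIP/KIP peak at Gpr19 lay at borders of other genes. Over 10 kb from every coding border lay 4 CIP/KIP peaks (1 of Cdkn1a, 2 of Cdkn1b and 1 of Cdkn1c) and 0 INK4 peaks, against 20.7% of all peaks. Median distances to a coding border were 6.26 kb for CIP/KIP, 0.261 kb for INK4 and 0.452 kb for the whole list. Several of these peaks share a locus, and the difference between the families was not tested.

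Spacing was taken between the centres of neighbouring peaks inside a window, so that distances longer than a window could not occur. The CIP/KIP windows held 7 such distances, from 945 to 23010 bp with a median of 14545 bp. The INK4 windows held 5, from 572 to 46408 bp with a median of 9139 bp. The ranges overlapped. Close pairs occurred in both families: 572 bp at the Cdkn2c start, 945 bp beyond the 3′ end of Cdkn1b and 1944 bp within Rab44 near Cdkn1a. In the whole list 5.27% of neighbouring pairs were under 1 kb apart and 6.75% under 2 kb, with a median of 78.4 kb. The pairs also differed in place, since only that of Cdkn2c stood at a start of the gene it was counted for. Cdkn2a and Cdkn2b, with 1 peak between them, gave no distance.

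**Figure D3:**
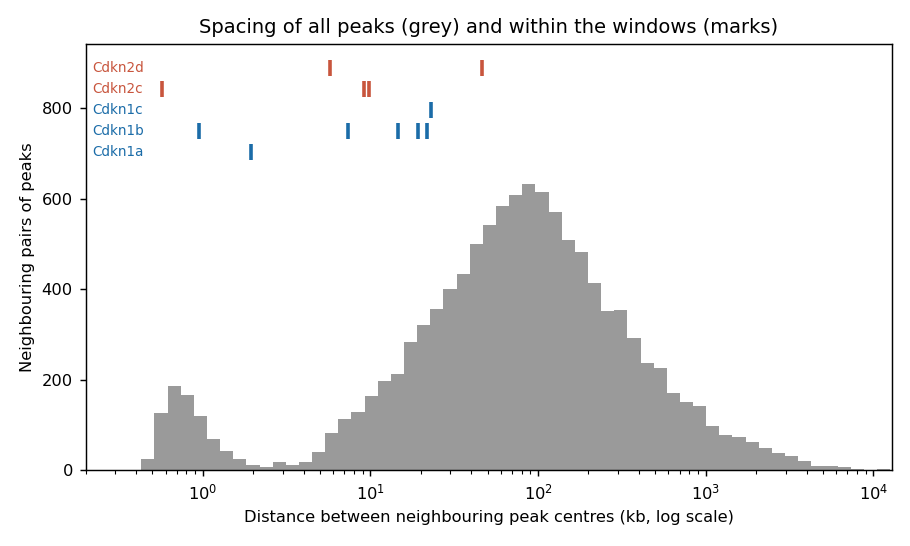
Distances between neighbouring peak centres (kb, log scale) for all 11414 neighbouring pairs on chromosomes 1 to 19, X and Y (grey bars) and, as marks above, for the pairs inside the windows of the CIP/KIP (blue) and INK4 (red) genes. The marks run from 0.572 to 46.4 kb, all below the median of 78.4 kb of the whole list, and longer distances seldom fit in a window.

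Start windows with and without a peak were also compared by base composition. The 4 windows with a peak within 1 kb were 62.0% (Cdkn1b), 66.3% (Cdkn2d), 73.3% (Cdkn2c) and 77.0% G and C (Cdkn2a, upstream start). The 5 without were 44.0% (second start of Cdkn2c), 54.7% and 64.7% (both starts of Cdkn1a), 57.7% (Cdkn2b) and 60.3% (downstream start of Cdkn2a, known for p16). These ranges overlapped only through the second start of Cdkn1a, which was richer in G and C than the window of Cdkn1b and had no peak. The second start of Cdkn2c, the window poorest in G and C, lay just past the 1 kb limit from the peak inside that gene. With a slightly wider limit it would join the windows with a peak, and the ranges would overlap more. CG dinucleotides numbered 22 to 45 in windows with a peak and 2 to 23 in those without. Over 21263 start windows of protein-coding genes the median was 63.3% G and C with a peak within 1 kb and 52.0% without. With all windows ranked by composition into 4 parts, a peak was near 7.28% of windows in the part poorest in G and C and 66.8% in the richest.

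**Figure D4:**
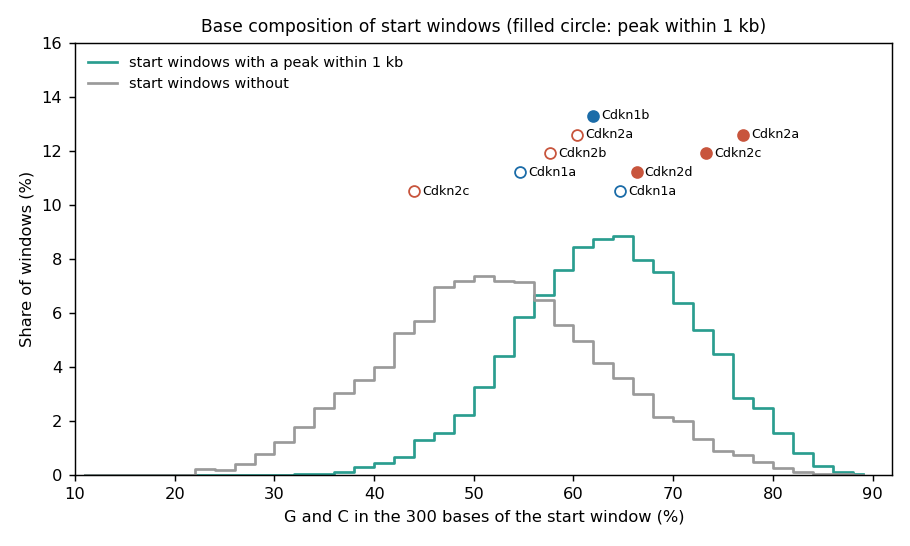
Share of start windows (%, y axis) by their content of G and C (%, x axis), for windows with a peak within 1 kb (green) and without (grey), with the 9 windows of CIP/KIP (blue) and INK4 (red) genes as circles whose height has no meaning. Filled circles, with a peak, lie at 62.0% and above, and open circles lie at 64.7% and below. The lowest open circle, the second start of Cdkn2c, was just past the 1 kb limit from a peak.

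Short motifs were searched in the 9 start windows on both strands, and a match is only a match of letters. The forkhead motif GTAAACA was in 0 of 9 windows, and in 3.01% of all start windows. Its shorter form TAAACA was in 1, that of Cdkn1b, at position -17 on the reverse strand and outside the peak (11.5% of all windows). The core AAACA, which lies within both, was in 3 windows (45.5% of all), and 2 of its matches were under a peak, at -245 in Cdkn1b and -133 in Cdkn2d. Longer forms of the forkhead motif other than GTAAACA and TAAACA were not searched, so these matches may belong to one. Over all start windows, AAACA was in 33.7% of those with a peak within 1 kb and 52.4% of those without. The shares were 7.95% and 13.6% for TAAACA, and 2.70% and 3.18% for GTAAACA. Windows with a peak were also richer in G and C, with a median of 63.3% against 52.0%. No motif share was adjusted for base composition, and a preference for or against a motif at peaks was not tested. The FOXL2 response element core GTCAAGG was in 0 windows (3.09% of all), as was the SF-1 motif CAAGGTCA that can overlap it (1.34%). The GC box GGGCGG was in 7 of 9 windows, all 4 with a peak and 3 of 5 without, against 71.5% of all windows with a peak and 31.5% of those without. CCAAT was in 4 (38.2% of all). The CRE motif TGACGTCA was in the window of Cdkn2b alone, at -46 (2.23%), and the E-box CACGTG in the second Cdkn2c window (7.84%). The letters TGACGCAA (0.644% of all windows), CCGGAAG of ETS factors (11.6%), TGANTCA of AP-1 (6.99%) and GATAA (22.5%) were in 0 of 9. Only part of each peak lies in these windows, and the rest of its sequence was not analysed here.

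The genes around the inhibitors were read from a list of 48 partners and regulators. This list was made with earlier results of these data known, so the shares over it are descriptions and were not tested. A peak in the gene or within 10 kb was found at 41 of them (85.4%), beside 49.6% of protein-coding genes; the median of the list was 1 peak against 0 over all genes. Of the kinases held back by these proteins, Cdk1, Cdk2, Cdk4 and Cdk6 all had a peak. It was centred 70 bp past the start of Cdk1, 201 bp past that of Cdk2 and 205 bp past that of Cdk4. The peak of Cdk6 lay inside the gene, 1226 bp upstream of an annotated start. Of the 7 cyclins 5 had a peak, among them Ccnd3 with 3, of which 1 lay nearest to Taf8, and Ccne1 with 2. Ccnd2, a D-type cyclin of granulosa cells, had its nearest peak 10.1 kb away, just past the limit, and Ccna1, a cyclin of male germ cells, 54.6 kb away. The pocket proteins, which are the main substrates of the cyclin D kinases, each had a peak: Rb1 had 4, of which 2 lay nearest to Lpar6, and Rbl1 and Rbl2 had 1 each.

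Genes listed under turnover and export of CIP/KIP proteins had a peak in 7 of 7 cases, and those of Cks1b and Cops5 lay nearest to Flad1 and Cspp1. Skp2, the ubiquitin ligase subunit that targets p27, had 2 peaks, 1 of them nearest to Lmbrd2. Fbxw7, placed in this class although it targets cyclin E and not p27, had 2. Among transcriptional activators of the inhibitor genes 10 of 12 had a peak, with Foxo1, a forkhead factor that acts on Cdkn1b, and Smad4, the common mediator of TGF-beta signals, at 2 each and Foxo4 and Smad3 at 0. Among repressors 10 of 13 had a peak, with Cbx8, Tbx2 and Id1 at 0, and the only peak of Cbx7 lay nearest to Apobec3. Bmi1, the Polycomb protein known for silencing Cdkn2a, had 4 peaks, of which 1 lay nearest to Bmi1 itself, 344 bp past its start. Kdm2b, a histone demethylase gene of the Polycomb system, had 4, all nearest to itself. Ezh2, the Polycomb methyltransferase, had 3, all nearest to itself. Tbx3 had 2, both nearest to itself, and Ring1 had 2, of which 1 lay nearest to Rxrb. Mdm4, an inhibitor of p53, had 2 peaks, 1 of them nearest to Pik3c2b, and Mdm2, the target of ARF, had 1 at 231 bp past its start. Cdk2 had 3 peaks, of which 2 lay nearest to Pmel and Rab5b. Of the 33 listed genes with a start in the promoter table, 26 had a peak within 1 kb of a start, beside 38.4% of all protein-coding genes with a start there.

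**Figure D5:**
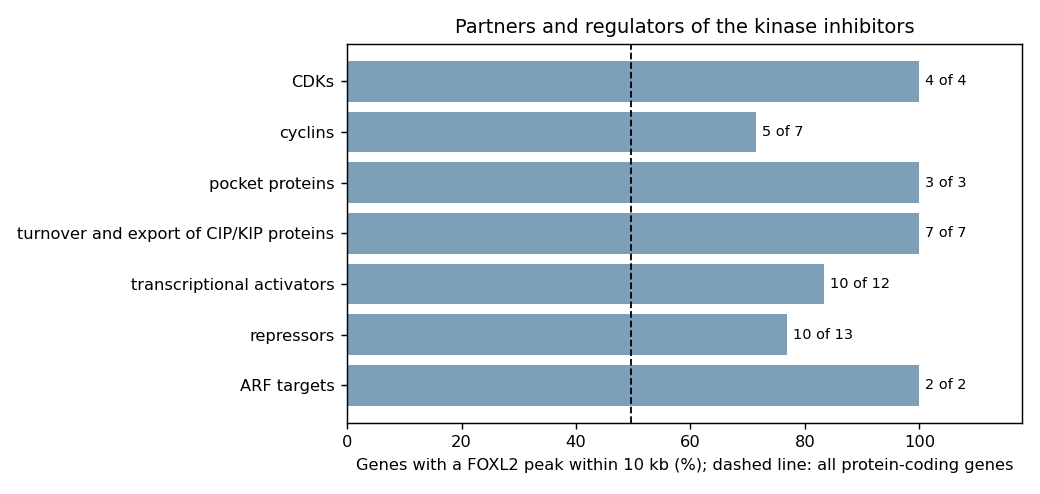
Share (%) of genes of each class of partners and regulators with a FOXL2 peak in the gene or within 10 kb, with the count at the end of each bar and all protein-coding genes as the dashed line at 49.6%. Every class stands above the line, from 71.4% of the cyclins to 100% in 4 classes of 2 to 7 genes. The list was made with earlier results of these data known, and the difference from the line was not tested.

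Genes with names like those of the inhibitors, but of neither family, also had peaks. Cdkn3, a phosphatase that acts on CDK2, had a peak 142 bp past its start. Cdkn2aip, which encodes a partner of ARF, had a peak 427 bp upstream of its start, and Cdkn2aipnl had a peak 68 bp past its start. A start peak was thus found at all 3 of these genes and at 4 of the 6 inhibitor genes with a listed start, the others being Cdkn1a and Cdkn2b, beside 38.4% of all protein-coding genes with a listed start.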

How the data were processed

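FOXL2 ChIP-seq was done on pooled ovaries, with 2 ChIP and 2 input samples; groups and replicate numbers came from the sample titles. The authors' deposited values are start and end positions in bp of 300 bp peaks in 1 list for both ChIP samples, which gives no depth. Per the submitters' processing notes, Bowtie 1.2, Picard 1.110, bedtools 2.24.0, HOMER 4.9 and build mm10 were used; the sources used here do not state their roles, the peak threshold or the use of inputs. Of 11438 peaks, 3 on other scaffolds were left out. Starts were made 1-based and distances taken from peak centres, with Python 3.11.15, numpy 2.4.6, pandas 2.3.3 and matplotlib 3.10.9. Genes came from the RefSeq table of GRCm38.p6, which has no exons or strand, so exons, introns and UTRs are not given. Strand and starts came from the RefSeq promoter table, where 6 of 7 genes matched; Cdkn1c was placed by its borders. Counting and nearest-border steps were tested on simulated data. Named genes were the 7 members, the nearest coding gene of each peak, listed partners with 2 or more peaks, kinases and cyclins without one, and 3 genes of like name; other partners, those without a peak among them, were named after their values were seen. The members and lists were chosen with earlier results of these data known. Alternatives were windows of 5, 10 and 100 kb, peak overlap, merging within 500 bp, nearest peaks only, other distances to the start, and a shorter start window.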

Additional observations from a re-analysis of the deposited data

How the results depend on the processing

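The counts depended on the window. With 10 kb or 5 kb in place of 50 kb, the distinct peaks of the 7 genes fell from 18 to 10 or 9, those of CIP/KIP genes from 10 to 4 in both settings, and those of INK4 genes from 8 to 5 at 5 kb. With 100 kb the CIP/KIP count was 16. With only the peaks nearest to the member by border there were 10 in all, 5 for each family. The order of the families by count, CIP/KIP above INK4, held at 50 and 100 kb and was turned at 10 kb (4 against 6) and 5 kb (4 against 5). Per gene it was turned at 10 kb alone, with 1.33 against 1.25 at 5 kb. Cdkn1b had the most peaks of the 7 genes at 50 and 100 kb, but fewer than Cdkn2c at 10 kb (3 against 4) and as many at 5 kb. The turn per gene and the lead of Cdkn2c at 10 kb both rested on 1 peak. That peak lay 9995 bp from Cdkn2c and nearest to Faf1. The median spacing of CIP/KIP peaks was 23.0 kb with 100 kb windows. Merging within 500 bp could change no count or spacing, because the closest peaks in the windows were 572 bp apart. Counting by overlap changed no count by over 1.5 times. Within 5 kb of a start in place of 1 kb, and with borders in place of starts, the own-start counts stayed at 2 and 4. The partners with a peak were within 1.5 times of 41 in every setting. No paired analysis was possible because both ChIP samples share 1 list of peaks. For the same reason leaving out a replicate could not be run, and neither could a stricter peak threshold, as no score is listed. Weak binding below the authors' threshold cannot be seen, so no peak does not mean no binding.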
